A study of Oryza sativa with 4 samples.

Results

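Jasmonate is a lipid-derived hormone of wounding, defence and stress in plants. Lipoxygenases oxidise fatty acids released from plastid membranes, allene oxide synthase (AOS) and allene oxide cyclase (AOC) turn the product into a cyclic precursor in the plastid, and a reductase (OPR) acts on that precursor in the peroxisome before the chain is shortened. JAR1 joins the finished acid to isoleucine, the receptor F-box protein COI1 binds this conjugate together with a TIFY (JAZ) repressor, and loss of the repressor frees the transcription factor MYC2 to act on its targets.

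The genes described here are 8 of the 55985 loci listed in the deposited tables, found in the tables by identifier, as genes of hormone synthesis, conjugation and perception proposed with earlier results of these data known: AOS1 (LOC_Os03g55800), AOS2 (LOC_Os03g12500), AOC (LOC_Os03g32314), OPR7 (LOC_Os08g35740), JAR1 (LOC_Os05g50890), COI1a (LOC_Os01g63420), COI1b (LOC_Os05g37690) and MYC2 (LOC_Os10g42430). All 8 had reads in every library and all 8 passed the filter on low values. For 7 of them the RefSeq gene table holds the name on the chromosome and in the gene order that the identifier gives. MYC2 has no entry there under that name, so its name rests on the identifier alone. The sources used here do not give the genome build behind the values, and no coordinates are stated.

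The libraries were made from messenger RNA of the aerial parts of rice (Oryza sativa) seedlings at an age of 15 days. The 4 groups were chilled 93-11, untreated 93-11, chilled Nipponbare and untreated Nipponbare, with 1 pool of seedlings and 1 library each. 93-11 is an indica cultivar and Nipponbare a japonica cultivar. Chilled seedlings had been moved for 33 h to 4 °C out of a greenhouse with days of 28 °C and nights of 25 °C. Untreated seedlings had no treatment, and the labels give no harvest hour. No group has a second library, so p-values do not measure spread between replicates of a group. They weigh a gene's mean change against how far the responses of the 2 cultivars (or the 2 conditions) disagree. That spread rests on 1 residual degree of freedom and is pooled with a prior from all genes tested, worth 4.13. The sources used here do not give the number of plants in a pool.

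The values are RPKM (reads per length of gene model and size of library), scaled between libraries by the trimmed mean of M-values. Whole reads were worked out from them, and the library totals lay between 12671333 and 16682882 reads, with 27969 to 30127 genes above 0. The labelled tissue was checked on markers. The summed level of 4 leaf loci was 4880 scaled RPKM in chilled 93-11 and 6780 in chilled Nipponbare, against 28700 in untreated 93-11 and 21400 in untreated Nipponbare. The 2 light-harvesting genes among them fell with chilling, and the other 2 leaf loci did not pass the test. Of 3 root markers, LSI2 had 0 reads in 3 libraries and 3 reads in untreated 93-11, and their summed level was 6.40 and 1.53 scaled RPKM in chilled 93-11 and Nipponbare, against 8.34 and 6.12 in untreated 93-11 and Nipponbare. Of the root markers, HKT2;1 had 0.771 and 0.378 scaled RPKM in chilled 93-11 and Nipponbare, against 2.48 and 1.16 in untreated 93-11 and Nipponbare, so it entered the test only through the untreated libraries. Its call was lost under 6 of 9 alternatives, among them no filter (limma adjusted p = 0.181, within a range of 0.0345 to 0.181). The 2 shoot meristem markers had at most 2 reads in any library. The part of these markers in the results below was not tested. In whole aerial parts, fewer cells of a type and less RNA per cell cannot be told apart.

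The question of the study was how transcripts respond to chilling in the 2 cultivars. Of the 8 jasmonate genes, 4 were higher in the chilled libraries (AOS2, AOS1, MYC2 and OPR7), 2 were lower (AOC and COI1a), and JAR1 and COI1b did not pass the test. The test was limma on log2(scaled RPKM + 1) fitted to all 4 libraries with a cultivar and a treatment term, and with Benjamini-Hochberg adjusted p called under 0.05. Over the 19466 genes tested, 23.1 percent were called higher and 23.7 percent lower in the chilled libraries, so calls were common. The median fitted change was 0.68 over the 8 genes and -0.09 over all genes tested.

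**Figure D1:**
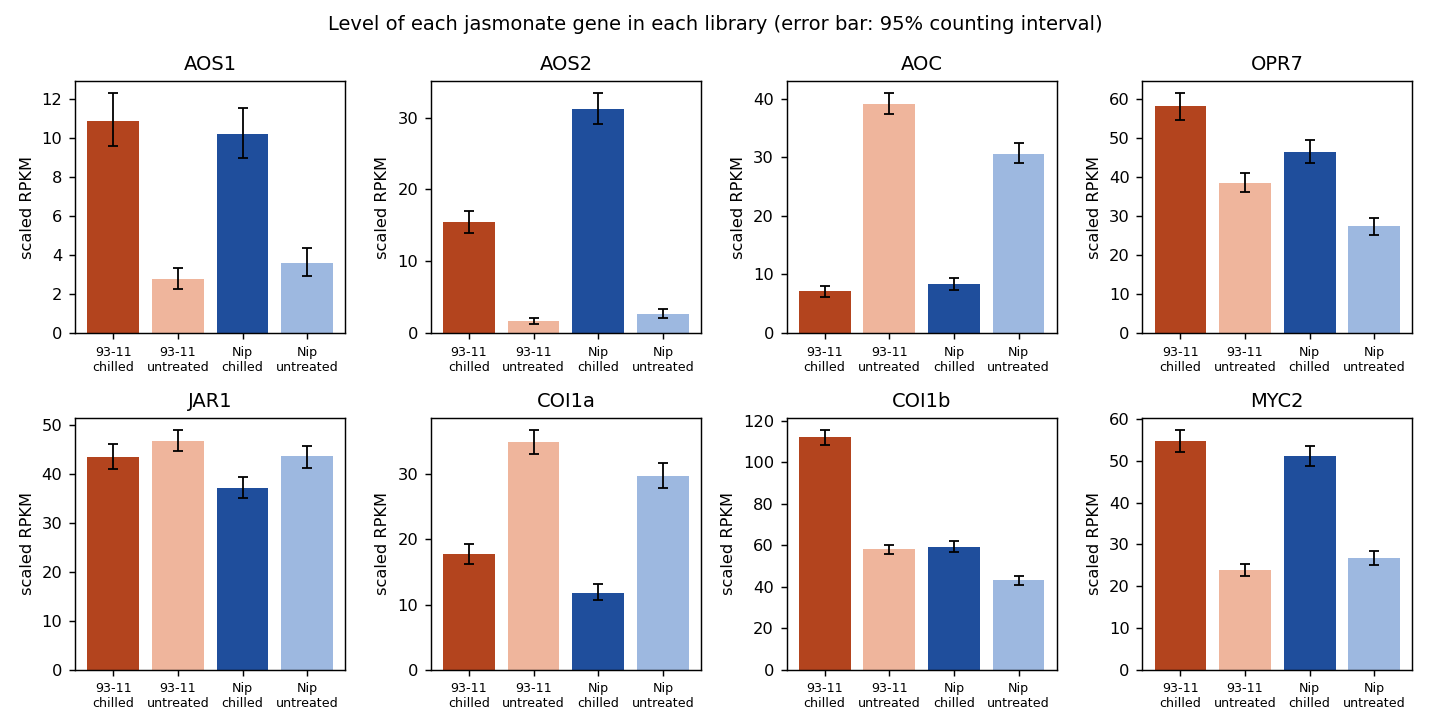
Level of each of the 8 genes in each library, in scaled RPKM on axes that start at 0. Bars are the 4 libraries, in the order chilled 93-11, untreated 93-11, chilled Nipponbare and untreated Nipponbare, and error bars are 95% counting intervals of the reads. AOS1, AOS2, OPR7, COI1b and MYC2 stand higher, and AOC and COI1a lower, in the chilled library of each cultivar.

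AOS1 and AOS2 encode allene oxide synthases, the cytochrome P450 enzymes of the first step that is particular to the hormone. AOS2 had 15.4 scaled RPKM in chilled 93-11 and 31.2 in chilled Nipponbare, against 1.63 in untreated 93-11 and 2.64 in untreated Nipponbare. These rest on 365 and 799 reads in the chilled libraries, against 58 and 76 reads in the untreated ones of 93-11 and Nipponbare. Both chilled libraries thus lay well above both untreated ones. Its fitted change was 2.89 ± 0.28 on the log2(RPKM + 1) scale (SE, 4 libraries, limma adjusted p = 0.00222), and 3.59 percent of all genes tested had a change at least as high.

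AOS1 had 10.9 scaled RPKM in chilled 93-11 and 10.2 in chilled Nipponbare, against 2.76 in untreated 93-11 and 3.59 in untreated Nipponbare. The fitted change was 1.48 ± 0.28 (limma adjusted p = 0.0119), and 13.1 percent of all genes tested had a change at least as high. Summed over both genes, the level of AOS transcripts was 26.3 scaled RPKM in chilled 93-11 and 41.5 in chilled Nipponbare, against 4.39 in untreated 93-11 and 6.23 in untreated Nipponbare. The sum was thus 5.98-fold higher in chilled than in untreated 93-11 and 6.66-fold higher in chilled than in untreated Nipponbare. In the values as deposited, the folds were 5.12 in 93-11 and 5.57 in Nipponbare. The genes that the reference table names AOS3 (LOC_Os02g12680) and AOS4 (LOC_Os02g12690) are not in this sum. The wider list described below holds both as hydroperoxide lyases. AOS3 had 0 to 4 reads per library and AOS4 had 0. A count of 0 allows up to 3 reads in a library.

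AOC encodes allene oxide cyclase, which acts directly after AOS and whose loss in rice gives the jasmonate-deficient mutants known as cpm2 and hebiba. It had 7.09 scaled RPKM in chilled 93-11 and 8.32 in chilled Nipponbare, against 39.1 in untreated 93-11 and 30.6 in untreated Nipponbare. These rest on 222 and 281 reads in the chilled libraries, against 1833 and 1161 reads in the untreated ones of 93-11 and Nipponbare. AOC thus moved opposite to AOS1 and AOS2 in each cultivar, with a fitted change of -2.03 ± 0.25 (limma adjusted p = 0.0039), and 4.69 percent of genes tested had a change at least as low.

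OPR7 encodes the reductase that in rice acts on the natural precursor of jasmonate, and is also known as OPEN GLUME1. It had 58.1 scaled RPKM in chilled 93-11 and 46.4 in chilled Nipponbare, against 38.5 in untreated 93-11 and 27.3 in untreated Nipponbare. The fitted change was 0.66 ± 0.20 (limma adjusted p = 0.0452), and 27.5 percent of all genes tested had a change at least as high. That call was lost under 4 of 9 alternatives, among them the values as deposited (0.43, adjusted p = 0.134). Over all 9 its adjusted p ran from 0.0101 to 0.134.

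JAR1 encodes the enzyme that joins jasmonate to isoleucine and so makes the form that the receptor binds. It had 43.5 scaled RPKM in chilled 93-11 and 37.1 in chilled Nipponbare, against 46.8 in untreated 93-11 and 43.6 in untreated Nipponbare. The 4 values lay close together, with chilled 93-11 nearly level with untreated Nipponbare. The fitted change of -0.17 ± 0.20 did not pass the test (limma adjusted p = 0.524), and its sign turned to 0.33 when the libraries were scaled to reference genes (adjusted p = 0.271, within a range of 0.153 to 0.805 over alternatives).

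COI1a and COI1b encode closely related F-box receptor proteins. COI1a had 17.7 scaled RPKM in chilled 93-11 and 11.8 in chilled Nipponbare, against 34.9 in untreated 93-11 and 29.7 in untreated Nipponbare. It was lower in both chilled libraries, by -1.10 ± 0.22 in the fit (limma adjusted p = 0.0143). Of all genes tested, 17.4 percent had a change at least as low. Scaled to reference genes, the change was -0.62 and did not pass (adjusted p = 0.098, the highest of a range from 0.00902).

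COI1b had 112 scaled RPKM in chilled 93-11 and 59.4 in chilled Nipponbare, against 58.0 in untreated 93-11 and 43.1 in untreated Nipponbare. Chilled Nipponbare and untreated 93-11 were nearly level. The fitted change of 0.70 ± 0.22 just missed the threshold (limma adjusted p = 0.0533). It passed under 5 of 9 alternatives (upper quartile, median-of-ratios and reference gene scaling, a pseudocount of 0.1, and voom), with adjusted p from 0.0157 to 0.232. The COI1b levels rest on 3456 and 1982 reads in chilled 93-11 and Nipponbare, against 2686 and 1617 reads in untreated 93-11 and Nipponbare.

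MYC2 encodes the basic helix-loop-helix factor that the TIFY repressors hold in check. It had 54.7 scaled RPKM in chilled 93-11 and 51.1 in chilled Nipponbare, against 23.9 in untreated 93-11 and 26.7 in untreated Nipponbare. The fitted change was 1.04 ± 0.21 (limma adjusted p = 0.0141), and 20 percent of all genes tested had a change at least as high.

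The direction of the change was the same under all 5 scalings tried for every one of the 8 genes except JAR1. Of all calls, 49.4 percent were higher in the chilled libraries, against 70.6 percent with scaling to reference genes, which moved the median of all genes by 0.39. One of those reference genes, ACT1, itself fell by 1.31 on the log2 scale (limma adjusted p = 0.00681). With the values as deposited the median moved by -0.19. Without the cultivar term and with 1 library left out, 2 of the 8 genes passed without chilled Nipponbare (AOS2 and AOC) and 1 without chilled 93-11 (AOS2). Without untreated 93-11, or without untreated Nipponbare, 0 passed, as did 0 of all genes tested, with 4 of the 8 at an unadjusted limma p under 0.05 in each case.

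**Figure D2:**
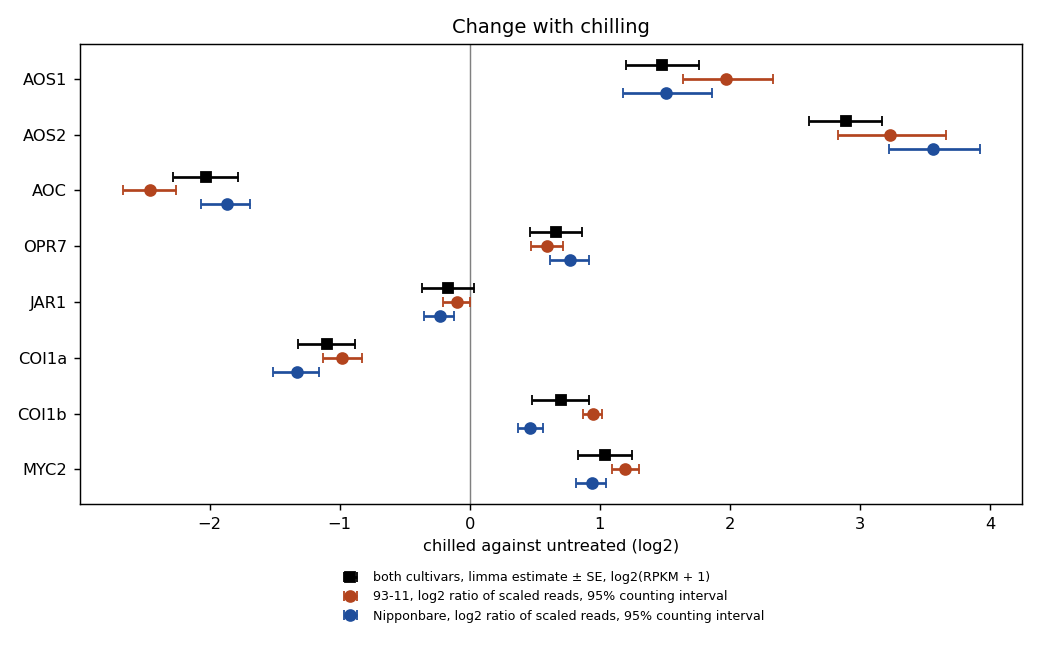
Change with chilling of each gene on a log2 axis. Squares are limma estimates over both cultivars with SE, and circles are log2 ratios of scaled reads within 93-11 and within Nipponbare with 95% counting intervals. AOS2 has the highest estimate (2.89) and AOC the lowest (-2.03), and for each gene both circles lie on the same side of 0.

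Next, each cultivar was taken alone. With 1 library per group there is no test, so log2 ratios of scaled reads are shown with 95% intervals from the exact binomial (Clopper-Pearson) of 1 library's reads given both, for counting error only. In both cultivars the order was the same at its ends, with AOS2 highest and AOC lowest. In 93-11 the intervals of 3 genes lay wholly above 2-fold (AOS2, AOS1 and MYC2) and that of AOC below it, where 19.6 percent of genes tested were higher and 16.7 percent lower by the same measure. In Nipponbare, AOS2 and AOS1 lay above 2-fold and AOC and COI1a below it, where 18.0 percent of genes were higher and 18.8 percent lower. These counts move with the scaling. In the values as deposited the ratio of MYC2 in 93-11 was 0.97, no longer past 2-fold. That of COI1a in 93-11 was then -1.21, past 2-fold, and the count in 93-11 stayed at 4. Over the scalings 4 to 6 of the 8 lay beyond 2-fold in 93-11 and 3 to 5 in Nipponbare.

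For AOS2 the log2 ratio of chilled to untreated reads was 3.23 (2.83 to 3.66) in 93-11 and 3.56 (3.22 to 3.92) in Nipponbare. For AOC it was -2.46 (-2.67 to -2.26) in 93-11 and -1.87 (-2.07 to -1.69) in Nipponbare, so these intervals did not overlap. AOS1 had 1.97 (1.64 to 2.33) in 93-11 and 1.51 (1.18 to 1.86) in Nipponbare, and those did.

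The receptor genes differed in which cultivar moved further. COI1a had -0.98 (-1.13 to -0.83) in 93-11 and -1.33 (-1.51 to -1.16) in Nipponbare, whereas COI1b had 0.95 (0.87 to 1.02) in 93-11 and 0.46 (0.37 to 0.56) in Nipponbare. MYC2 had 1.19 (1.09 to 1.30) in 93-11 and 0.94 (0.82 to 1.05) in Nipponbare. OPR7 had 0.59 (0.47 to 0.72) in 93-11 and 0.77 (0.62 to 0.92) in Nipponbare, and JAR1 had -0.10 (-0.21 to 0.00) in 93-11 and -0.23 (-0.35 to -0.12) in Nipponbare, with overlapping intervals for each gene.

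The response of 93-11 minus that of Nipponbare had a Wald 95% counting interval clear of 0 for 4 of the 8 genes, and for 46.4 percent of all genes tested, so the count for these genes is near that of the table. It was -0.58 (-0.86 to -0.31) for AOC, 0.35 (0.13 to 0.58) for COI1a, 0.48 (0.36 to 0.60) for COI1b and 0.26 (0.11 to 0.41) for MYC2. Which genes are clear of 0 can move with the scaling. With median-of-ratios scaling the difference for MYC2 was 0.15. For AOS1 it was 0.46 (-0.01 to 0.93), and 0.50 in the values as deposited. None of the 8 intervals lay beyond 2-fold, where 4.14 percent of genes tested were higher and 2.19 percent lower. The design leaves no test of this difference, and biological spread between plants is not in these intervals.

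The ratio of 2 genes within a library does not depend on how libraries are scaled to each other. The ratios below restate the levels given above, so their shifts are not separate results. Their intervals cover counting error alone, with 1 library per group. The ratio of the AOS2 to the AOS1 level was 1.42 in chilled 93-11 and 3.05 in chilled Nipponbare, against 0.591 in untreated 93-11 and 0.737 in untreated Nipponbare. AOS1 was thus the more abundant of the pair in the untreated libraries, though in untreated Nipponbare the counting interval (0.54 to 1.00) reached parity, and AOS2 was in the chilled ones. The ratio was higher in chilled seedlings by 2.39-fold in 93-11 (95% counting interval 1.67 to 3.44) and by 4.14-fold in Nipponbare (2.98 to 5.75).

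The ratio of the COI1b to the COI1a level was 6.33 in chilled 93-11 and 5.04 in chilled Nipponbare, against 1.66 in untreated 93-11 and 1.45 in untreated Nipponbare. COI1b was the more abundant receptor transcript in every library, and by more in the chilled ones. The ratio was higher in chilled seedlings by 3.81-fold in 93-11 (3.40 to 4.26) and by 3.48-fold in Nipponbare (3.03 to 3.99). The summed level of both was 129 scaled RPKM in chilled 93-11 and 71.2 in chilled Nipponbare, against 92.8 in untreated 93-11 and 72.8 in untreated Nipponbare. As folds of chilled over untreated, the sum was 1.39 in 93-11 and 0.978 in Nipponbare (1.19 and 0.817 in the values as deposited).

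Along the synthesis steps, the ratio of the OPR7 to the AOC level was 8.19 in chilled 93-11 and 5.57 in chilled Nipponbare, against 0.986 in untreated 93-11 and 0.892 in untreated Nipponbare. The 2 levels were thus closer to each other in the untreated libraries, where the interval held parity in 93-11 (0.913 to 1.06) and lay just below it in Nipponbare (0.807 to 0.985). The ratio was higher in chilled seedlings by 8.31-fold in 93-11 (7.06 to 9.79) and by 6.25-fold in Nipponbare (5.29 to 7.38).

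**Figure D3:**
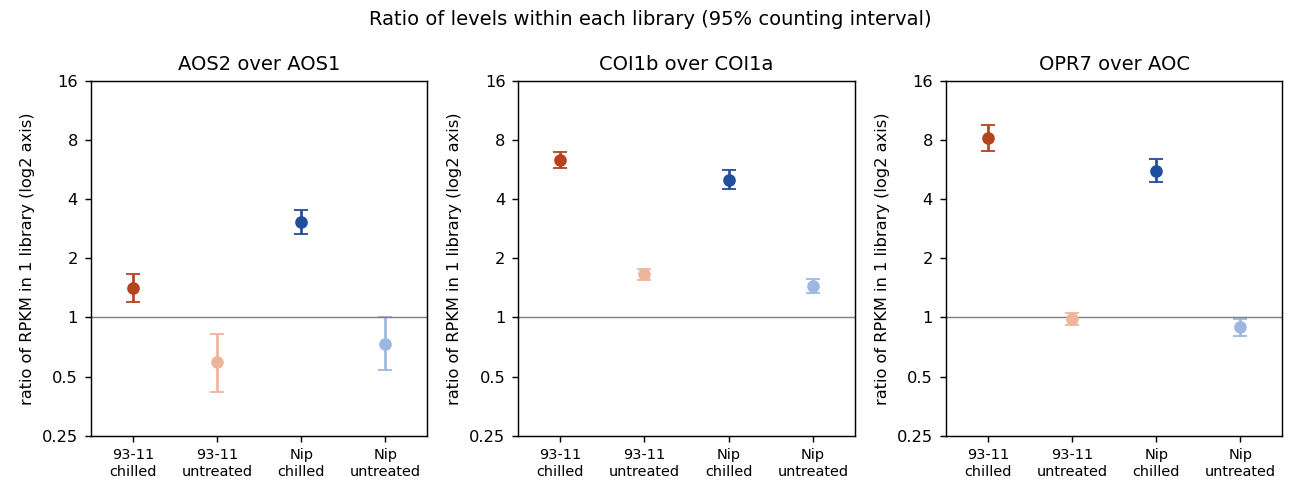
Ratio of the RPKM of 2 genes within each library, on a log2 axis, with 95% counting intervals. In the order of the libraries from chilled 93-11 to untreated Nipponbare, AOS2 over AOS1 runs 1.42, 0.591, 3.05 and 0.737, COI1b over COI1a 6.33, 1.66, 5.04 and 1.45, and OPR7 over AOC 8.19, 0.986, 5.57 and 0.892.

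The order of the 8 levels, which RPKM allows to be compared per length, differed between chilled and untreated libraries. In chilled 93-11 it ran from COI1b (112 scaled RPKM) through OPR7, MYC2, JAR1, COI1a, AOS2 and AOS1 to AOC (7.09). In chilled Nipponbare it ran from COI1b (59.4) through MYC2, OPR7, JAR1, AOS2, COI1a and AOS1 to AOC (8.32). Neighbours whose counting intervals overlapped were OPR7 with MYC2 in both, COI1a with AOS2 in chilled 93-11, and COI1a with AOS1 and AOS1 with AOC in chilled Nipponbare.

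In untreated 93-11 the order ran from COI1b (58.0) through JAR1, AOC, OPR7, COI1a, MYC2 and AOS1 to AOS2 (1.63). In untreated Nipponbare it ran from JAR1 (43.6) through COI1b, AOC, COI1a, OPR7, MYC2 and AOS1 to AOS2 (2.64). The intervals overlapped for AOC with OPR7 and OPR7 with COI1a in untreated 93-11, and in untreated Nipponbare for JAR1 with COI1b, for AOS1 with AOS2, and for each step from AOC down to MYC2. AOC thus held the last place in both chilled libraries and the third in both untreated ones. The highest level was 15.8-fold the lowest in chilled 93-11 and 7.14-fold in chilled Nipponbare, against 35.5-fold in untreated 93-11 and 16.5-fold in untreated Nipponbare.

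The next comparison was between the cultivars. In the limma fit 0 of the 8 genes passed the cultivar term, where 5.48 percent of genes tested were called, 1.57 percent higher and 3.91 percent lower in 93-11. At an unadjusted p under 0.05 there were 2, AOS2 and COI1b, where 17.7 percent of all genes tested were, so nothing is read from this count. By voom, 0 passed and 2 were at an unadjusted p under 0.05. COI1b averaged 84.9 scaled RPKM in 93-11 and 51.3 in Nipponbare, a fitted difference of 0.66 ± 0.22 (limma adjusted p = 0.22), and was higher in 93-11 in both conditions. AOS2 averaged 8.51 scaled RPKM in 93-11 and 16.9 in Nipponbare, a fitted difference of -0.72 ± 0.28 (limma adjusted p = 0.276), and was lower in 93-11 in both conditions.

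By reads alone, the log2 ratio of 93-11 over Nipponbare for COI1b was 0.91 (0.83 to 0.99) in chilled and 0.43 (0.34 to 0.52) in untreated seedlings. For AOS2 it was -1.02 (-1.20 to -0.84) in chilled and -0.69 (-1.21 to -0.18) in untreated seedlings. COI1a had 0.58 (0.39 to 0.78) in chilled and 0.23 (0.11 to 0.35) in untreated seedlings, and OPR7 had 0.32 (0.20 to 0.45) and 0.50 (0.35 to 0.65) in the same order.

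JAR1 had 0.23 (0.11 to 0.35) in chilled and 0.10 (0.00 to 0.20, the lower bound just above 0) in untreated seedlings. These 5 genes had intervals clear of 0 on the same side in both conditions, as did 29.1 percent of all genes tested. This set, too, can move with the scaling. In the values as deposited, JAR1 was nearly level between the untreated libraries, with 49.2 RPKM in 93-11 and 49 in Nipponbare. For AOC the ratio of 93-11 over Nipponbare was -0.23 (-0.49 to 0.03) in chilled and 0.35 (0.25 to 0.46) in untreated seedlings. Its sign differed, though the chilled interval held 0. AOS1 had 0.09 (-0.17 to 0.34) in chilled and -0.38 (-0.79 to 0.04) in untreated seedlings, and MYC2 had 0.10 (0.00 to 0.19) and -0.16 (-0.28 to -0.04). The signs of AOS1 and MYC2 thus differed too, and both AOS1 intervals held 0. None of the 8 intervals lay wholly beyond 2-fold between the chilled libraries (AOS2, at -1.02, had a ratio past 2-fold but an interval that reached inside it). By that measure 6.68 percent of genes were higher and 7.48 percent lower in chilled 93-11. None lay wholly beyond 2-fold between the untreated libraries, where 3.01 percent of genes were higher and 6.51 percent lower in 93-11. The sources used here do not say whether reads of 93-11 were mapped to a genome of another cultivar, and the effect of sequence differences on these ratios was not tested.

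**Figure D4:**
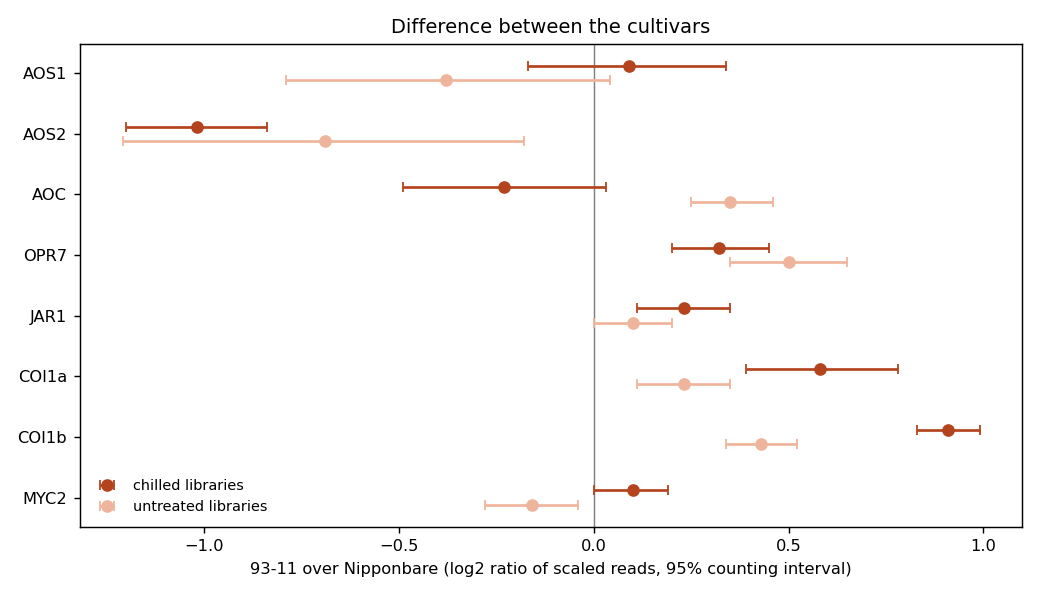
Log2 ratio of scaled reads of 93-11 over Nipponbare for each gene, with 95% counting intervals, in chilled (dark) and untreated (light) seedlings. COI1b lies furthest to the right in chilled seedlings (0.91) and AOS2 furthest to the left in both conditions (-1.02 and -0.69).

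A wider list of 45 further jasmonate loci, drawn up from general knowledge of rice with earlier results of these data known, was set beside the 8. Of these, 36 passed the filter on low values. In the chilled libraries 23 of them were higher and 4 lower, and the median change was 1.24. A gene that passes the filter only through the libraries of 1 condition must differ, so these counts describe the list and test nothing. The reference table holds the names of 27 of the 45, of which 19 were tested, 15 higher and 2 lower. The 4 lower genes were LOX2, OPR8 and the loci LOC_Os02g10120 and LOC_Os02g02000, the last 2 without a name in the table and chosen after their values were seen.

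Some lipoxygenases feed the pathway, and which of the listed loci do so was not tested. Of 11 loci listed as lipases or lipoxygenases, 8 were tested, 4 were higher and 2 lower. Of the 6 with a checked name, 3 were higher, 1 was lower and 2 were too low to test. The other lower locus, LOC_Os02g10120, whose name was not checked, had 11.3 scaled RPKM in chilled 93-11 and 15.2 in chilled Nipponbare, against 149 in untreated 93-11 and 323 in untreated Nipponbare. These untreated levels were the highest of the 11 loci, and the change was -3.97 ± 0.25 (limma adjusted p = 0.00107). LOX8 (LOC_Os08g39840) had 43.0 scaled RPKM in chilled 93-11 and 80.6 in chilled Nipponbare, against 0.595 in untreated 93-11 and 1.34 in untreated Nipponbare. Chilled and untreated libraries were far apart, with a fitted change of 4.96 ± 0.25 (limma adjusted p = 0.000846). LOX8 lies next to LOX9, and reads shared by near-identical neighbours could be split between them. LOX2 (LOC_Os03g08220) had 12.1 scaled RPKM in chilled 93-11 and 10.3 in chilled Nipponbare, against 23.8 in untreated 93-11 and 31.0 in untreated Nipponbare, a change of -1.21 ± 0.25 (limma adjusted p = 0.016, lost with scaling to reference genes at 0.0906 within a range from 0.00802).

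Of 5 other OPR genes, most of which belong to a subfamily whose enzymes are not thought to act on the natural precursor, 2 were higher, 1 was lower and 2 were not tested. OPR1 (LOC_Os06g11290) had 182 scaled RPKM in chilled 93-11 and 39.3 in chilled Nipponbare, against 2.06 in untreated 93-11 and 2.30 in untreated Nipponbare, a change of 4.76 ± 0.55 (limma adjusted p = 0.00346). It was thus above OPR7 in chilled 93-11 and below it in the other 3 libraries. OPR1 belongs to a cluster of like genes, so its reads may be shared. OPR8 (LOC_Os02g35310), at 0.759 scaled RPKM in chilled 93-11 and 0.352 in chilled Nipponbare, against 3.42 in untreated 93-11 and 1.72 in untreated Nipponbare, passed the filter on low values only through the untreated libraries, so its place among the lower genes is not read as a result. With no filter its change of -1.17 did not pass (limma adjusted p = 0.0877, within a range of 0.0153 to 0.0877). Nor did it pass without the cultivar term (limma adjusted p = 0.0828).

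COI2 (LOC_Os03g15880), a further receptor gene of the COI1 family, had 35.7 scaled RPKM in chilled 93-11 and 26.7 in chilled Nipponbare, against 16.7 in untreated 93-11 and 16.4 in untreated Nipponbare. It was higher in both chilled libraries, by 0.86 ± 0.22 (limma adjusted p = 0.0296), a call lost without the cultivar term and in the values as deposited (adjusted p 0.0118 to 0.0721 over alternatives). Of the 3 receptor genes, COI2 was higher in the chilled libraries, COI1a was lower and COI1b did not pass. Of 13 TIFY repressor genes, 9 were higher in the chilled libraries and 2 were not tested. Of all genes tested, 23.1 percent were called higher. TIFY11A had 0.218 scaled RPKM in untreated 93-11 and 0.0674 in untreated Nipponbare, and TIFY11E had 0.167 and 0.138. Both passed the filter on low values only through the chilled libraries, so their places among the 9 are not read as results. TIFY3 (-0.36 ± 0.20, limma adjusted p = 0.193) and TIFY10C (-0.65 ± 0.26, limma adjusted p = 0.0925) did not pass. The highest change among genes of checked name was that of TIFY11D (5.23 ± 0.23, limma adjusted p = 0.000781), with 171 scaled RPKM in chilled 93-11 and 213 in chilled Nipponbare, against 2.83 in untreated 93-11 and 5.83 in untreated Nipponbare.

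**Figure D5:**
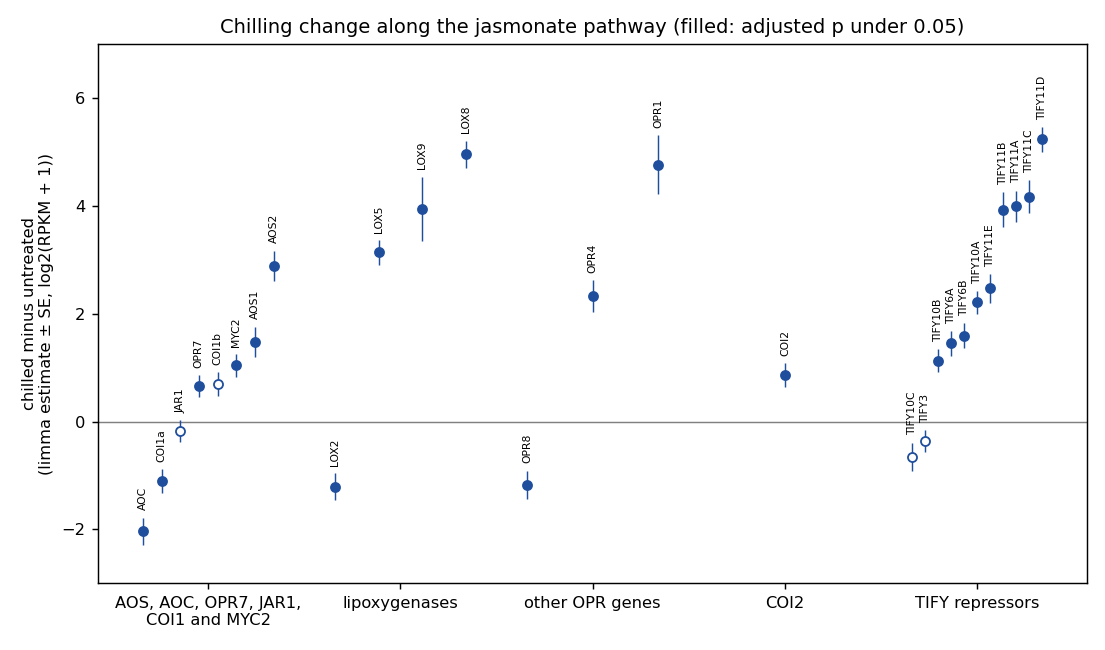
Fitted change with chilling (limma estimate and SE on the log2(RPKM + 1) scale) of the 8 genes and of the tested genes of checked name in the wider list, by group. Filled points passed at an adjusted p under 0.05. TIFY11D (5.23), LOX8 (4.96) and OPR1 (4.76) lie above AOS2 (2.89), and AOC (-2.03) is the lowest point.

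For each of the 8 genes, the list gene with the most similar profile was sought as the smallest Euclidean distance between log2(RPKM + 1) values over the 4 libraries, each centred on its mean. Over 4 points this is a description only. MYC2 lay closest to TIFY10B (0.20, with 154 of the 19465 other genes tested nearer), AOS1 to TIFY6A (0.34, 376 nearer) and AOS2 to OPR4 (0.63, 111 nearer). AOC lay closest to LOC_Os02g02000 (0.24, 62 nearer), COI1a to OPR8 (0.36, 724 nearer) and JAR1 to LOC_Os05g23880 (0.31, 1093 nearer). The wider list holds LOC_Os02g02000 as a hydroperoxide lyase, under a name that was not checked. OPR8 passed the filter on low values only through the untreated libraries, so its pairing with COI1a is not read as a result. Both OPR7 (0.38, 632 nearer) and COI1b (0.48, 535 nearer) lay closest to COI2. Every one of these pairs thus had many other genes of the table nearer.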

How the data were processed

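Each library came as 1 deposited table of RPKM values, which the authors had computed per gene model. The file headers name no unit, and the values were whole reads over a whole gene length and library total. The submitters' processing notes list HTSeq 0.5.4p3, TopHat2 2.0.9 and Bowtie2 2.0.6, with no role stated. The sources used here do not give build, annotation or strand setting, and overlapping or antisense genes cannot be told apart.

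Library totals were found from low values, and for all 36941 genes above 0 a whole length and whole reads could be solved. With totals shifted by a few percent, 6 of 500 deep genes could be solved. Reads are known up to a common whole factor and sum to 97.7 to 98.1 percent of the totals. Intervals cover counting error alone: reads copied by PCR are not separate molecules.

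Values were scaled by trimmed mean of M-values factors from these reads (trimming 0.3 of ratios and 0.05 of intensities), and the test, limma 3.58.1 (R 4.3.3) with an intensity trend, took genes that reached 1 RPKM in 2 or more libraries. The fit has 1 residual degree of freedom and a prior worth 4.13. Adding 1 RPKM before the logarithm understates changes of low genes. Ratios of reads add 0.5 reads. The recovery of reads was also run on data simulated by the same formula with known totals, and nothing is read from that here.

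The 8 genes and the wider list were chosen with earlier results of these data known. From the wider list the text names the 3 highest and 3 lowest changes past the test among genes of checked name, of which 2 were lower, and the nearest gene to each of the 8. AOS3 and AOS4 are named as relatives of members. TIFY3, TIFY10C, TIFY11A, TIFY11E, LOX9, LOC_Os02g10120, LOC_Os02g02000 and LOC_Os12g37260 are named after their values were seen. In the RefSeq table (assembly ASM3414082v1) 0 of the identifiers occur, and some synonyms were added after it was seen. No sequence was used here.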

Additional observations from a re-analysis of the deposited data

How the results depend on the processing

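Over 9 alternatives (4 scalings, a pseudocount of 0.1, 2 filters, voom, no cultivar term), AOS1, AOS2, AOC and MYC2 kept direction and call, with adjusted p at most 0.0303. Of the 8 genes, 5 to 7 passed the chilling test, against 6. The sign of JAR1 turned when scaled to reference genes (0.33 over both cultivars, 0.49 within 93-11, 0.18 within Nipponbare). In the cultivar difference, with no calls, signs turned for AOS1 (0.01, reference genes) and MYC2 (0.01 with upper quartile scaling, 0.09 with reference genes). The cause was not tested.

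Without the cultivar term, 6051 of all genes passed for chilling. Leaving out 1 library as well gave 0 to 2896 of all genes (1889 without chilled 93-11), 0 to 2 of the 8 and 0 to 10 of the wider list. For the counts of 0, limma had 5318 and 5469 genes, and 20 and 22 list genes, at an unadjusted p under 0.05. For the cultivar difference, 449 genes passed with no filter, 634 with a mean of at least 1 RPKM, and 0 without the treatment term (1226 at an unadjusted p under 0.05) or with 1 library fewer as well (0 to 0, with 659 to 1103 unadjusted). Those last fits mix the treatment into the cultivar, and gave -0.93 to 0.73 for AOS1, -2.29 to 0.85 for AOS2, -1.08 to 1.22 for AOC, -0.25 to 1.02 for COI1a and -0.61 to 0.55 for MYC2. Other turned signs there were 0.54 for AOS1, 0.60 for AOS2, -0.81 for AOC, -0.09 for COI1a and 0.43 for MYC2. Of the wider list, 17 genes of checked name passed, an alternative chosen after seeing the data. At 1.5-fold, 2692 responses differed between cultivars, against 1233 at 2-fold. Blocking by cultivar is part of the test itself. No paired analysis was possible because, beyond that, each group has 1 library and the replicate numbers pair nothing.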

Other observations

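LOC_Os12g37260, a locus of the wider list singled out after its values were seen, had 0.053 scaled RPKM in chilled 93-11 and 0.0707 in untreated 93-11, against 57.8 in chilled Nipponbare and 18.0 in untreated Nipponbare. These rest on 2 and 4 reads in the 93-11 libraries and on 2351 and 824 reads in the Nipponbare ones. It passed the filter on low values only through the Nipponbare libraries and was picked for this pattern, so no test is given. A loss of reads at sequence differences was not tested.

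The neighbours LOX8 and LOX9 (LOC_Os08g39850) were both higher in the chilled libraries. LOX9 had 18.7 scaled RPKM in chilled 93-11 and 2.03 in untreated 93-11, and 75.1 in chilled Nipponbare and 1.11 in untreated Nipponbare, a fitted change of 3.94 ± 0.60 (limma adjusted p = 0.00688). OPR1 had 182 scaled RPKM in chilled 93-11 against 39.3 in chilled Nipponbare, while its untreated levels were 2.06 and 2.30. The difference between the cultivars' responses was not tested for these genes.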
